A study of Mus musculus with 36 samples.

Results

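The members described here are 10 genes that mark endothelial cells, the cells that line blood vessels: Cldn5, Pecam1, Cdh5, Flt1, Kdr, Tek, Eng, Ly6c1, Ly6a and Itm2a. They were chosen by name, with earlier results of these data known. Each matched 1 gene of the 19909 in the deposited table, so all 10 were found. Their transcripts were higher in 1 sorted population, labelled Other, than in the 7 named stem cell, progenitor and neuroblast populations of the same tissue. In those 7 populations all members but Itm2a were low or at the detection floor. In cultured neurosphere cells, Flt1 and Itm2a were higher than in the 7 named populations and lower than in Other, and Cldn5, Ly6a and Ly6c1 were at or near the floor.

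RNA came from C57BL/6 mice aged 8 weeks and was sequenced in 36 libraries after poly(A) selection. From homogenized subependymal zone (SEZ), a neurogenic niche of the adult brain along the lateral ventricle, 8 populations were sorted by fluorescence: Other (3 libraries), and the populations labelled qNSC, pNSC, aNSC and NPC1 (4 libraries each), NPC2, NB1 and NB2 (3 libraries each). From passage 4 neurospheres grown from this region, 2 more populations were sorted, DFFDA_H and DFFDA_L (4 libraries each). Neurospheres are floating colonies of neural stem and progenitor cells. They were kept in EGF and FGF, loaded with DFFDA, a dye that cells dilute as they divide, and cultured for 4 days before the sort. The labels give no genotype change or other agent for any group, and do not say which cells Other holds. How the sort was gated is not stated in those labels. Each library is a bulk sample. Fewer endothelial cells, less RNA per endothelial cell and transcripts of other cells therefore cannot be told apart in any comparison below.

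Endothelial cells of the brain form the blood-brain barrier, in which tight junctions seal neighbouring cells and transporters carry nutrients inward and drugs outward. In the subependymal zone vessels run beside the stem cells and supply them with signals. Growth and rest of the endothelium are set by vascular endothelial growth factors (VEGFs) acting on the receptors encoded by Flt1 and Kdr, by angiopoietins acting on the receptor encoded by Tek, and by ligands of the TGF-beta family acting through the co-receptor encoded by Eng. Endothelial genes are controlled in large part by transcription factors of the ETS family (Erg, Fli1, Ets1) and of the SOX family (Sox7, Sox17, Sox18).

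The promoters of Flt1, Itm2a and Cldn5 are shown because these genes took different levels in neurosphere cells: Flt1 and Itm2a transcripts were detected in every neurosphere library, and those of Cldn5 were at or within 1 unit of the floor. Each sequence runs from 250 bases before to 50 bases after the RefSeq start site (GRCm38.p6), 5′ to 3′ on the gene's strand, and capitals mark AGGAAG on either strand, a core sequence that ETS factors bind. The Flt1 window is chr5:147725962-147726261 on the minus strand, the Itm2a window chrX:107403311-107403610 on the minus strand and the Cldn5 window chr16:18776597-18776896 on the plus strand.
Flt1: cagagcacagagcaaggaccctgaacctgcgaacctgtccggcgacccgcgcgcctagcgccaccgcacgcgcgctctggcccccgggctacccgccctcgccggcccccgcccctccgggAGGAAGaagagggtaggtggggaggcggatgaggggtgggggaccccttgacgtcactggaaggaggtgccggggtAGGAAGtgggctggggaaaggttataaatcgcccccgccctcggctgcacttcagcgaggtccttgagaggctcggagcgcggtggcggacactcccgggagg
Itm2a: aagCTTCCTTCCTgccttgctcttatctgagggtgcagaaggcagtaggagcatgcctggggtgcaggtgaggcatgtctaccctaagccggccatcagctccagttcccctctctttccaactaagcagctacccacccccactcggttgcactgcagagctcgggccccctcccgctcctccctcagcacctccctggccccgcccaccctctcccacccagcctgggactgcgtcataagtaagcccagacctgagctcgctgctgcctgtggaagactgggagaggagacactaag
Cldn5: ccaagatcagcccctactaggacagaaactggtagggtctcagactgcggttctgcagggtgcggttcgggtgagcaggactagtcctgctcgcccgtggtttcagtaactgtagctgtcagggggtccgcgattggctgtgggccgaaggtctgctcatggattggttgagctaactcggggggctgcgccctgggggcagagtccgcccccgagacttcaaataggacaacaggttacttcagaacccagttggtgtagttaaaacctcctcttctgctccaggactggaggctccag
The Flt1 window held 2 matches, the Itm2a window 2 that overlap each other, and the Cldn5 window none. Of the windows not shown, that of Eng held 2, those of Kdr and Tek 0, and the 2 of Ly6c1 held 0 and 3. Ly6c1 was at or near the floor in neurosphere libraries, while Eng, Kdr and Tek were above it in all 8. RefSeq promoters were matched for 7 members, with 8 windows in all. AGGAAG was found in 4 of the 8 windows (Flt1, Eng, Itm2a and 1 of the 2 Ly6c1 start sites). It was found in 35.4% of 32851 mouse promoters of the same length. CATTGT, a core sequence of SOX factors searched on both strands, was found in 0 of the 8 windows and in 12.6% of all promoters. A match is only a description of these letters. Entries for Pecam1, Cdh5 and Ly6a were not matched.

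The deposited values are on a log2 scale that resembles log2 CPM, read counts brought to 1 total, so a step of 1 is a doubling. Each library has a floor, the value shared by its lowest genes, which lay between -5.06 and -2.18 and held 362 to 3932 of the genes. A value at the floor means that no level was measurable at that depth, and total reads are not given. A difference was tested with limma over all genes of a comparison, with Benjamini-Hochberg adjustment, and called at an adjusted p under 0.05. The protocol calls the replicates biological but names no separate animals or cultures for them. The p-values therefore cover only the spread between these libraries, which may be technical.

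Other was compared with the mean of the 7 named populations, each counted equally, to see where transcripts of the members were higher. All 10 members were called higher in Other, by 5.40 (Eng) to 9.99 (Cldn5) on the log2 scale, where 25.9% of 17788 tested genes were called higher, 54.3% were called in either direction and the median of all tested genes was -0.06. The median of the members was 7.95. In every member, the 3 libraries of Other lay above all 25 libraries of the named populations, which held for 4.83% of the tested genes. Cdh5, Flt1, Kdr, Tek and Ly6a passed the filter on low values (at least 0 in 3 libraries of a group) only through Other and so had to differ. Their p-values against Other below are therefore description and no support for a difference. The other 5 also passed through another population, Itm2a through all 8.

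**Figure D1:**
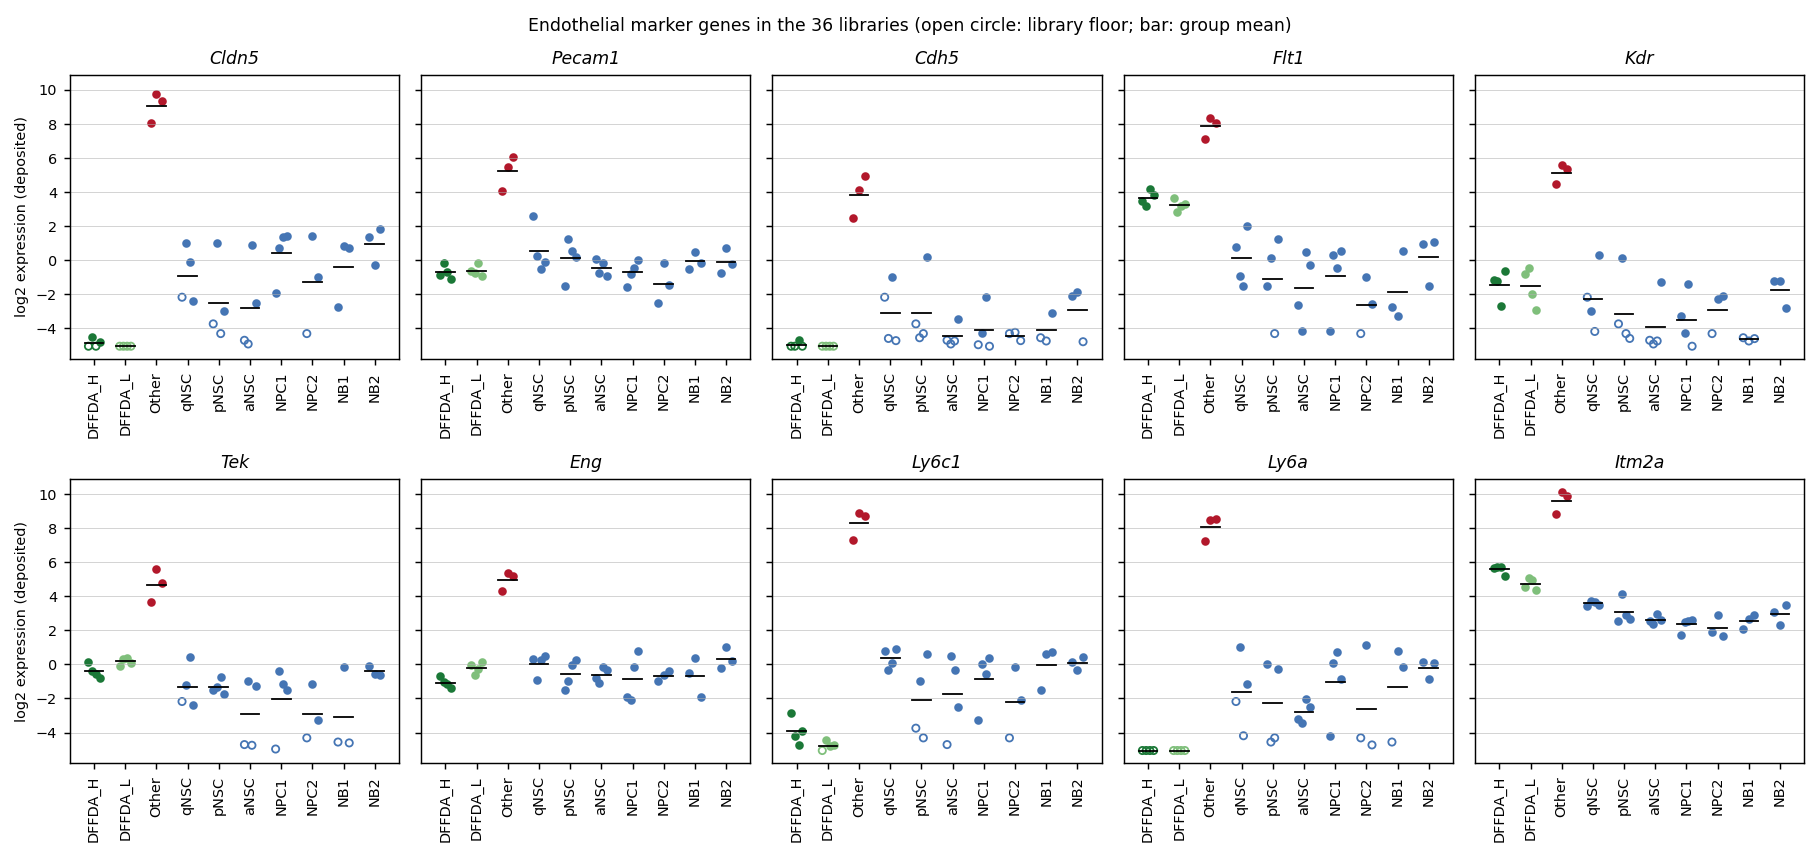
Each panel plots 1 endothelial marker gene, with the deposited log2 expression of every library on the vertical axis and the 10 groups on the horizontal axis; open circles are libraries at their floor and bars are group means. The 3 libraries of Other stand above all libraries of the 7 named populations in each panel, and the neurosphere groups DFFDA_H and DFFDA_L stand between them for Flt1 and Itm2a.

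Among the genes of cell junctions, Cldn5 encodes claudin 5, the main tight junction protein of brain endothelium (ENSMUSG00000041378, GRCm38 chromosome 16, 18776847 to 18778262). Its log2 level was 8.06, 9.75 and 9.33 in Other replicates 1 to 3, against a lowest value of -4.92, a median of -0.30 and a highest of 1.84 in the 25 named libraries. The groups did not overlap, and 6 of the named libraries were at the floor, 2 of them pNSC and 2 aNSC. The difference of 9.99 ± 1.14 (limma SE) had an adjusted p of 1.01e-07 by limma. Cdh5 encodes VE-cadherin of the adherens junction (ENSMUSG00000031871, chromosome 8, 104101625 to 104144511). Its level was 2.49, 4.13 and 4.93 in Other, against -5.06 to 0.17 with a median of -4.31 in the named libraries, 17 of which were at the floor. The highest named library was pNSC replicate 4, which still lay below all of Other. The difference was 7.60 ± 0.90 (limma adjusted p 1.80e-07), and its size depends on the floor, being 3.84 with values below 0 set to 0. An antisense gene model overlaps Cdh5, and the library kit does not mark strand, so reads of the pair cannot be told apart.

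Pecam1 encodes CD31, an adhesion protein of endothelium and blood cells and an antigen commonly used in cell sorting (ENSMUSG00000020717, chromosome 11, 106654217 to 106750628). Its level was 4.05, 5.50 and 6.09 in Other, against -2.53 to 2.60 with a median of -0.15 in the named libraries. No named library was at the floor, and qNSC replicate 1, at 2.60, came closest to Other. The difference was 5.50 ± 0.58 (limma adjusted p 3.05e-08). The distance between the lowest library of Other and the highest named library was 1.44, the smallest of the 10 members.

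The VEGF receptors had the same order. Flt1 encodes VEGFR1, which binds VEGF tightly and also exists as a soluble decoy (ENSMUSG00000029648, chromosome 5, 147561604 to 147726011). Its level was 7.13, 8.38 and 8.07 in Other, against -4.31 to 2.03 with a median of -0.94 in the named libraries. Only 2 of the 25 named libraries were at the floor, and none reached Other. The difference was 8.99 ± 1.07 (limma adjusted p 1.81e-07). Kdr encodes VEGFR2, the main signalling receptor for VEGF (ENSMUSG00000062960, chromosome 5, 75932827 to 75978458). Its level was 4.47, 5.58 and 5.34 in Other, against -5.06 to 0.31 with a median of -3.74 in the named libraries, 13 of them at the floor. The difference was 8.29 ± 0.93 (limma adjusted p 7.32e-08), or 5.11 with values below 0 set to 0.

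The remaining receptors were lower than Flt1 in Other. Tek encodes TIE2, the angiopoietin receptor (ENSMUSG00000006386, chromosome 4, 94739289 to 94874976), with levels of 3.66, 5.58 and 4.77 in Other, against -4.97 to 0.47 with a median of -1.31 in the named libraries. The groups did not overlap, although 3 NB2 libraries lay close together near -0.41 ± 0.30 (SD, n = 3), above the other named means. The Tek difference was 6.67 ± 0.93 (limma adjusted p 1.82e-06), the largest adjusted p of the members. Eng encodes endoglin (ENSMUSG00000026814, chromosome 2, 32646595 to 32682669), with levels of 4.34, 5.39 and 5.19 in Other, against -2.08 to 1.00 with a median of -0.31 in the named libraries, none of them at the floor. Its difference of 5.40 ± 0.52 was the smallest of the members (limma adjusted p 8.60e-09). Eng overlaps 4 other gene models, among them Fpgs on the opposite strand, so a part of its reads may belong to them.

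The Ly6 genes encode small proteins tethered to the cell surface, and Ly6a (SCA-1) and Ly6c1 are widely used as mouse endothelial markers. Ly6a (ENSMUSG00000075602, chromosome 15, 74994877 to 74998031) had levels of 7.24, 8.46 and 8.52 in Other, against -4.73 to 1.15 with a median of -1.17 in the named libraries, 7 of them at the floor. Ly6c1 (ENSMUSG00000079018, chromosome 15, 75044018 to 75048830) had levels of 7.32, 8.92 and 8.73 in Other, against -4.71 to 0.91 with a median of -0.30 in the named libraries, 4 of them at the floor. For Ly6c1 the distance between the groups, 6.41, was the largest of the members. The differences were 9.78 ± 1.18 for Ly6a (limma adjusted p 2.14e-07) and 9.25 ± 0.94 for Ly6c1 (limma adjusted p 1.73e-08). Ly6c1 has a near-identical copy, Ly6c2, which was not analysed here, so its level is uncertain.

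Itm2a encodes a type II membrane protein found in brain endothelium and elsewhere (ENSMUSG00000031239, chromosome X, 107397099 to 107403376). It was the only member above 0 in every library of the series. Its level was 8.82, 10.15 and 9.92 in Other, against 1.64 to 4.14 with a median of 2.64 in the named libraries. The groups did not overlap, and the difference of 6.87 ± 0.30 had the smallest adjusted p of the members, 3.33e-14 by limma.

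The 3 libraries of Other did not hold the members evenly. Replicate 1 was the lowest for 10 of the 10 members, while replicate 2 was highest for 7 (Cldn5, Flt1, Kdr, Tek, Eng, Ly6c1 and Itm2a) and replicate 3 for Pecam1, Cdh5 and Ly6a. Replicate 2 exceeded replicate 1 by 1.04 (Eng) to 1.92 (Tek), and replicate 3 exceeded it by 0.84 (Eng) to 2.44 (Cdh5). The summed level of the members (log2 of the sum of the linear values) was 10.28, 11.72 and 11.49 in replicates 1 to 3. All 10 members stayed called when any 1 library was left out.

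Per kilobase of exon, 4 members stood above the other 6 in Other. Itm2a (8.82 ± 0.71), Cldn5 (8.54 ± 0.88), Ly6a (7.81 ± 0.72) and Ly6c1 (7.58 ± 0.88) were highest on the length-scaled log2 level (SD, n = 3). Flt1 followed at 4.11 ± 0.65, then Eng at 2.96 ± 0.55, Pecam1 at 2.57 ± 1.05, Tek at 2.44 ± 0.96, Kdr at 1.96 ± 0.59 and Cdh5 at 1.77 ± 1.24. These 6 overlapped in their libraries, Flt1 with Pecam1 alone. These SDs include the lower level of replicate 1 that all members share, and the lengths are those of all annotated exons rather than of the transcripts used.

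Other endothelial genes were high in the same libraries. The gene lists were chosen with earlier results of these data known, so their counts are no independent support. For each list count against Other below, 25.9% of all tested genes were called higher and 28.4% lower. Of 18 further surface and junction genes, 16 were tested and 16 were called higher in Other, with a median difference of 6.77. Of these, 9 passed the filter only through Other. Esam, an adhesion protein of endothelial junctions, had levels of 6.46 to 8.10 in Other, against -4.31 to 1.75 in the named libraries (difference 7.55). Egfl7, a secreted endothelial protein, differed by 4.58 with the smallest adjusted p of the list, 1.01e-11 by limma. Emcn (endomucin) and Tie1, the partner of the Tek receptor, differed by 8.05 and 7.04. Of the endothelial transcription factor genes, 8 of 8 tested were called higher, with a median of 4.66, and 4 of them passed the filter only through Other. Sox17, which takes part in arterial identity, had levels of 4.70 to 6.35 in Other, against -4.97 to 0.52 in the named libraries (difference 8.80). Erg and Fli1, ETS factors of the endothelium, differed by 3.60 and 3.65.

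Transporters of the blood-brain barrier were split more widely. Of 11 tested, 10 were called higher and 1, the amino acid transporter Slc7a5, lower in Other (-0.99), with a median of 3.26, and 3 passed the filter only through Other. Their summed level was 10.11 to 11.43 in Other, against 6.24 to 10.52 in the named libraries, so the groups overlapped. It was 10.39 to 10.52 in qNSC. In 7 of the 11 every library of Other lay above all named libraries. The organic anion transporter Slco1a4 had levels of 6.68 to 7.60 in Other, against -4.97 to 1.90 in the named libraries (difference 7.90). The glucose transporter Slc2a1 (GLUT1) had 8.11 to 9.28 in Other, against 3.49 to 8.07 in the named libraries, a difference of 3.14. Slc2a1 was above the floor in every named library, as were the members Pecam1, Eng and Itm2a. The thiamine transporter Slc19a3 and the lipid transfer protein gene Pltp differed by 6.48 and 5.25.

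Ligands and partners of the member receptors did not all move one way. Of 18 genes of the VEGF, angiopoietin and endoglin pathway tested, 11 were called higher and 2 lower in Other, with a median of 1.49. Of these genes 5 passed the filter only through Other, and Ptprb and Tie1 also belong to the surface list. Acvrl1 (ALK1, which signals with endoglin), the phosphatase gene Ptprb, Tie1, the VEGF receptor gene Flt4 and the co-receptor genes Nrp2 and Nrp1 differed by 8.22, 7.57, 7.04, 4.83, 3.62 and 1.83, and Tgfbr2 and Bmpr2 by 2.65 and 0.94. The ligand genes Angpt2, Vegfc and Pgf differed by 2.50, 1.68 and 1.31. The genes called lower in Other were both ligands, Vegfa (-2.99) and Vegfb (-0.98). Vegfa, the main ligand of the Flt1 and Kdr receptors, had levels of 2.50 to 3.94 in Other, against 3.11 to 8.31 in the named libraries. Angpt1 (0.65), Tgfb1 (0.84), Smad1 (0.04), Smad5 (-0.26) and Itgb1 (-0.13) were not called. Of the Ly6 family, 4 of 5 tested were called higher, the members Ly6a and Ly6c1 with Ly6e (4.07) and Ly6h (1.35), and Lynx1 was not (-0.58). Ly6a is inducible by interferon, and whether this bears on its level was not tested. Of 15 interferon response genes tested 8 were called higher, among them Ifitm3 (4.43), Bst2 (3.24) and B2m (2.70). The 2 called lower were Stat2 (-1.19) and Ifit2 (-0.66). In 0 of the 15 did every library of Other lie above all named libraries. Their summed level was 8.36 to 9.59 in Other, against 6.33 to 9.33 in the named libraries, so the groups overlapped.

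**Figure D2:**
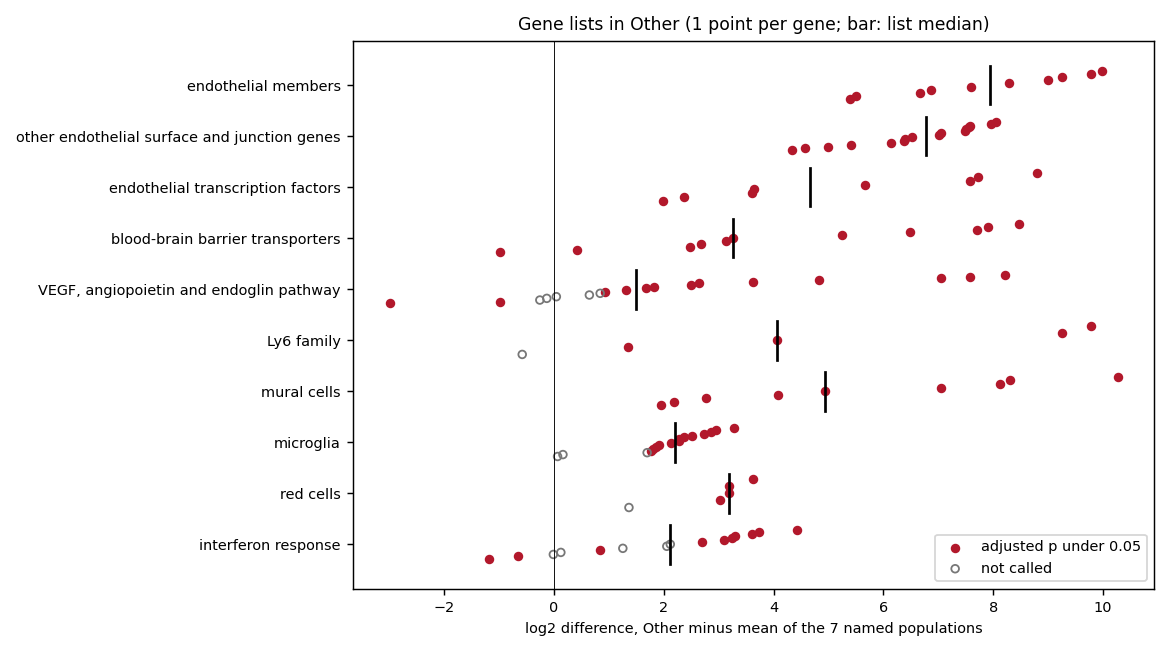
Each point is 1 gene, placed on the horizontal axis by its log2 difference between Other and the mean of the 7 named populations, with gene lists on the vertical axis; filled points have a limma adjusted p under 0.05 and bars are list medians. The endothelial members have a median of 7.95 and the mural cell genes one of 4.93, while the microglia, pathway and interferon lists lie nearer to 0.

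Markers of other cell types were also higher in Other, and their part in the result was not tested. Of 9 genes tested for mural cells, the pericytes and smooth muscle cells that wrap vessels, 9 were called higher, with a median of 4.93, and 4 passed the filter only through Other. Their summed level was 7.24, 10.96 and 9.93 in Other replicates 1 to 3, against 1.77 to 7.45 in the named libraries. Replicate 1 was thus again the lowest and alone lay within the named range. In 7 of the 9 mural genes every library of Other lay above all named libraries, which held for 4.83% of all tested genes. It held for 0 of the 16 microglial and 0 of the 5 red cell genes tested. Rgs5, a pericyte regulator of G protein signalling, had 4.23 to 6.75 in Other, against -4.97 to 1.93 in the named libraries, 13 of them at the floor. Pdgfrb, the pericyte PDGF receptor, had 1.95 to 5.67 in Other and overlapped the named libraries, at -4.61 to 7.30. Of 16 microglial genes, 13 were called higher, with a summed level of 9.59 to 10.43 in Other, against 7.65 to 10.17 in the named libraries. The defining microglial markers Csf1r, P2ry12 and C1qa were at the floor in 0 of the 28 freshly sorted libraries. Of 5 red cell genes tested, 4 were called higher, with a summed level of 5.48 to 8.89 in Other, against -2.01 to 6.65 in the named libraries. Of 5 genes of fibroblasts and leptomeninges 3 were called higher, among them Dcn (7.53), and 3 of the 5 passed the filter only through Other. Of 6 mature neuron genes 3 were called higher, of 5 oligodendrocyte precursor genes 1 was higher and 2 were lower, of 7 ependymal genes 1 was higher and 1 lower, of 6 oligodendrocyte genes 0 were higher and 2 lower, and of 8 astroglial genes 2 were higher and 2 lower.

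**Figure D3:**
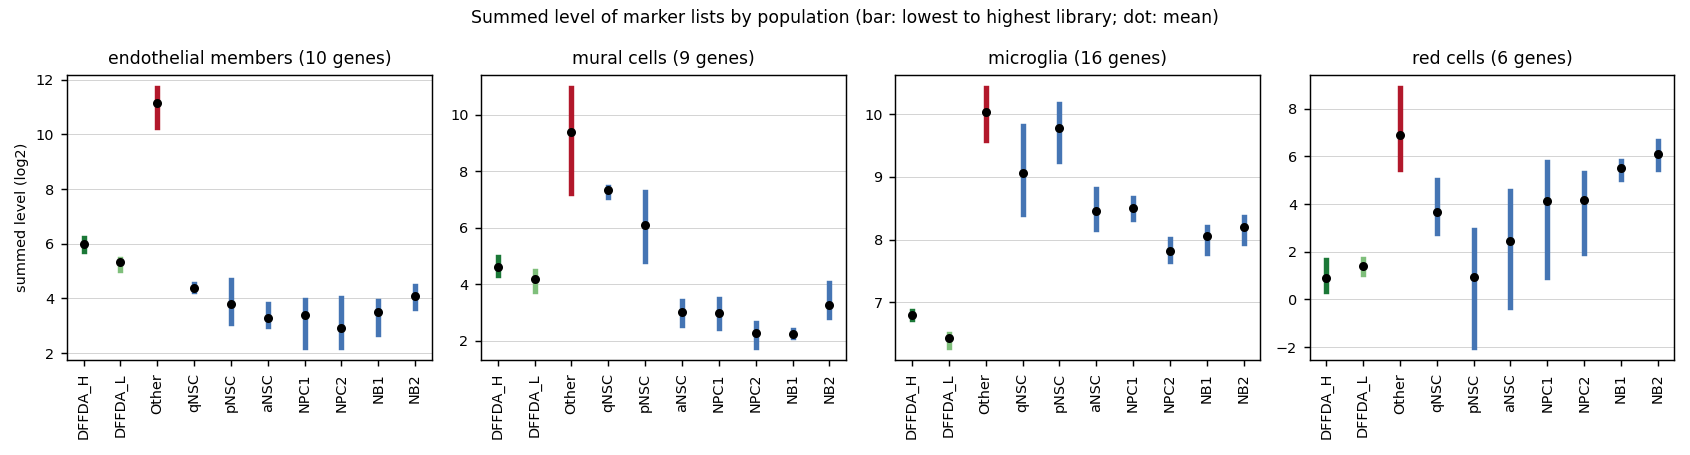
Each panel plots the summed level of 1 marker list (log2, vertical axis) in the 10 groups (horizontal axis), as a bar from the lowest to the highest library with a dot at the mean. Other stands apart from the named populations for the endothelial members (10.28 to 11.72 against 2.21 to 4.68). It overlaps them for microglia and red cells, and for mural cells through replicate 1 of Other alone.

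The genes whose levels were most like those of the members included 3 of the endothelial lists, Robo4, Emcn and Sox17. By Pearson r over the 28 freshly sorted libraries with the summed level of Cldn5, Pecam1, Cdh5, Flt1, Kdr and Tek, the closest of 13995 other genes were Hspb1 (0.938), Igfbp7 (0.930), Slc9a3r2 (0.925), Cavin2 (0.920), Robo4 (0.915), Rasip1 (0.911), Emcn (0.902), Car4 (0.900), Slc38a5 (0.895) and Sox17 (0.889). Robo4 encodes an endothelial guidance receptor, Car4 a carbonic anhydrase of capillary surfaces, and Cavin2 a protein of caveolae. These values describe 28 libraries that share population, depth and sort, and they follow the contrast of Other with the rest. Without the 3 libraries of Other the same 10 genes had r from 0.389 to 0.663, and only Robo4 stayed among the 10 closest. With values below 0 set to 0, 4 of the 10 stayed among the 10 closest, so the ranking also depends on the floor. Igfbp7, a secreted protein of vessel walls, was the gene most like Itm2a (0.966), Eng (0.911) and Pecam1 (0.904). Emcn was closest to Cldn5 (0.908), Robo4 to Kdr (0.898), Car4 to Ly6c1 (0.893), and Cavin2 to Flt1 (0.900) and Ly6a (0.891). Edn3, which encodes endothelin 3, was closest to Cdh5 (0.885), and Fxyd5, a regulator of the sodium pump, to Tek (0.846). With values below 0 set to 0, none of these first-ranked genes stayed among the 3 closest to its member.

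Among themselves the members had r from 0.731 to 0.921 over the 28 freshly sorted libraries, with a median of 0.823 over 45 pairs. Over the 25 named libraries, as deviations from each population's mean, r ran from -0.202 to 0.801 with a median of 0.242, and 40 of the 45 pairs were above 0. The points of these pairs share library and depth. The libraries with most members at the floor were NPC2 replicate 1 with 7, pNSC replicate 3 with 6, and qNSC replicate 1 and aNSC replicate 1 with 5 each.

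Within the named populations the members lay far below Other, and which cells these transcripts came from was not tested. As a share of the level in Other (from group means on the log2 scale), Eng lay at 1.76 to 4.03% over the 7 named populations, Pecam1 at 1.03 to 3.98% and Tek at 0.456 to 2.95%. Itm2a lay at 0.561 to 1.52% and Cdh5 at 0.316 to 0.916%. Kdr, Flt1, Ly6c1, Cldn5 and Ly6a stayed at or below 0.843%, with lowest shares of 0.115, 0.0697, 0.0685, 0.0269 and 0.0529%. Shares that rest on libraries at the floor are set by the floor. Among the named populations NB2 had the highest mean of Cldn5, Cdh5, Flt1, Kdr, Tek, Eng and Ly6a, and qNSC that of Pecam1, Ly6c1 and Itm2a. Ordered by mean over all 10 groups, Other came first for every member with no overlap to the next group. Other neighbours in that order that did not overlap were DFFDA_L over NB2 for Flt1, NB2 over pNSC for Tek, aNSC over DFFDA_H for Ly6a, and DFFDA_H over DFFDA_L and DFFDA_L over qNSC for Itm2a. All other neighbours overlapped.

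None of the steps along the named sequence moved a member past the threshold. Cdh5, Flt1, Kdr, Tek and Ly6a passed the filter on low values only through Other, which is in none of these steps. With only the groups compared, 4 members passed it in pNSC against qNSC, and 2 each in the steps to aNSC, NPC1 and NPC2. In the steps to NB1 and NB2 only 1 member passed. The counts of 0 of 10 in these steps therefore cannot show that low members stayed level. In pNSC against qNSC, 0 of 10 members were called by limma (22.3% of tested genes were), and 1, Ly6c1, had an unadjusted p under 0.05. Ly6c1 had levels of -3.74, -0.995, -4.31 and 0.614 in pNSC, against 0.80, -0.33, 0.11 and 0.91 in qNSC. Of the pNSC libraries 2 were at the floor, and of the other 2 the higher lay within the qNSC range, so the groups overlapped. The difference was -2.48 ± 1.09 (limma adjusted p 0.103). In aNSC against pNSC, 0 of 10 were called, where 48.3% of tested genes were, and 0 had an unadjusted limma p under 0.05. The smallest adjusted p there was that of Tek (-1.60, limma adjusted p 0.227).

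In NPC1 against aNSC, 0 of 10 members were called by limma (12.7% of tested genes were), and 1, Cldn5, had an unadjusted p under 0.05. Cldn5 had levels of -1.92, 0.70, 1.35 and 1.45 in NPC1, against -4.71, -4.92, 0.88 and -2.51 in aNSC. Of the aNSC libraries 2 were at the floor, and aNSC replicate 3 overlapped NPC1. The difference was 3.21 ± 1.32 (limma adjusted p 0.114). In NPC2 against NPC1, where 1.34% of tested genes were called, and in NB1 against NPC2, where 7.67% were, 0 of 10 members were called by limma and 0 had an unadjusted p under 0.05. In NB2 against NB1, 0 of 10 were called (24.6% of tested genes were), and 2, Kdr and Tek, had an unadjusted limma p under 0.05. Kdr had levels of -1.24, -1.25 and -2.78 in NB2, against -4.56, -4.75 and -4.61 in NB1. The groups did not overlap, and all 3 NB1 libraries were at the floor, so the difference of 2.88 ± 1.24 (limma adjusted p 0.0915) depends on it. Tek differed by 2.69 ± 1.25 in the same step (limma adjusted p 0.117). Of 9 mural genes tested in the same step 2 were called, where 24.6% of all tested genes were. These were Rgs5 and Vtn, higher in NB2 by 4.00 and 5.08. The rest were not called and went both ways, among them Notch3 (-2.37) and Pdgfrb (2.62). The part of mural transcripts was not tested.

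Neurosphere cells were compared with freshly sorted cells by the mean of the 2 neurosphere groups against the mean of the 8 sorted populations. Of the 10 members 8 were called by limma, 2 higher and 6 lower, where 83.2% of 19158 tested genes were called, 38.5% higher and 44.7% lower. The members' share of calls is therefore close to that of all genes, and their median difference was -0.98 against -0.14. Origin and culture cannot be told apart in this comparison, and the mean of the sorted populations includes Other. Without Other, an alternative chosen after seeing the data, 8 were again called, but 4 higher and 4 lower. Of all 19158 tested genes 15965 were called in that setting, 7393 higher and 8572 lower, so this share too is close to that of all genes.

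Flt1 and Itm2a were the members called higher in neurosphere cells than in the mean of the 8 sorted populations. Flt1 had levels of 3.46, 3.17, 4.16 and 3.82 in DFFDA_H and 3.64, 2.84, 3.21 and 3.30 in DFFDA_L, against -4.31 to 2.03 in the named libraries and 7.13 to 8.38 in Other. Every neurosphere library lay above every named library and below every library of Other. The difference was 3.45 ± 0.62 (limma adjusted p 6.83e-06) against all 8 sorted populations and 4.58 ± 0.65 (limma adjusted p 1.88e-07) without Other. Itm2a had levels of 5.66, 5.72, 5.74 and 5.22 in DFFDA_H and 4.57, 5.06, 4.97 and 4.36 in DFFDA_L, against 1.64 to 4.14 in the named libraries. It too lay between the named populations and Other without overlap. The difference was 1.55 ± 0.18 (limma adjusted p 2.53e-09), and 2.41 ± 0.18 without Other (limma adjusted p 1.33e-13).

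The other receptors depended on whether Other was included. Tek had -0.81 to 0.36 with a median of 0.02 in neurosphere libraries, against -4.97 to 0.47 in the named libraries. Kdr had -2.90 to -0.45 with a median of -1.20 in neurosphere libraries, against -5.06 to 0.31. Both overlapped the named libraries, and neither was called against all 8 sorted populations (1.06, limma adjusted p 0.0687 for Tek; 0.63, limma adjusted p 0.287 for Kdr). Without Other both were called higher, Tek by 1.89 (limma adjusted p 0.00265) and Kdr by 1.67 (limma adjusted p 0.00914). With values below 0 set to 0 and Other included, both were called lower, with differences of -0.48 for Tek (limma adjusted p 3.34e-04) and -0.65 for Kdr (limma adjusted p 5.24e-09). With both changes neither was called (0.10 for Tek, limma adjusted p 0.0907; -0.015 for Kdr, limma adjusted p 0.745), so no direction is drawn for them.

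The junction genes Cldn5 and Cdh5 and both Ly6 genes were called lower in neurosphere cells with the values as deposited, at sizes that the floors set in part. Ly6a was at the floor in 8 of 8 neurosphere libraries, Cdh5 in 7 and Cldn5 in 6. The Cldn5 range was -5.06 to -4.51 in neurosphere libraries, against -4.92 to 1.84 in the named libraries, of which 6 were at the floor. The Ly6c1 range was -5.06 to -2.84 in neurosphere libraries, against -4.71 to 0.91 in the named libraries. The differences were -5.26 for Cldn5, -4.58 for Ly6a, -4.57 for Ly6c1 and -2.21 for Cdh5, with limma adjusted p-values of 1.38e-08, 3.26e-07, 7.09e-09 and 1.61e-04. Without Other they were -4.02, -3.35, -3.41 and -1.26, with limma adjusted p-values of 5.64e-06, 9.96e-05, 4.48e-06 and 0.0241. Neurosphere libraries had lower floors than most sorted ones, which enters these sizes: with values below 0 set to 0 the differences against all 8 sorted populations were -1.59, -1.16, -1.22 and -0.49. For Cdh5, 17 of the 25 named and 7 of the 8 neurosphere libraries were at the floor, so its difference without Other compares mainly floors. Without Other and with values below 0 set to 0, also chosen after seeing the data, 15854 of 19158 tested genes were called. Of the members 3 were called in that setting, Flt1 and Itm2a higher and Cldn5 lower (-0.52, limma adjusted p 0.0227). Ly6a (-0.17, limma adjusted p 0.204), Ly6c1 (-0.21, limma adjusted p 0.0655) and Cdh5 (-0.01, limma adjusted p 0.887) were then not called.

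Pecam1 and Eng were called lower in neurosphere cells only with Other in the mean. Pecam1 had -1.13 to -0.15 in neurosphere libraries, against -2.53 to 2.60 in the named libraries, and Eng had -1.38 to 0.13, against -2.08 to 1.00. Both lay within the named range. Their differences were -1.07 (limma adjusted p 0.00530) and -0.88 (limma adjusted p 0.0103), and without Other -0.39 (limma adjusted p 0.303) and -0.20 (limma adjusted p 0.561).

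**Figure D4:**
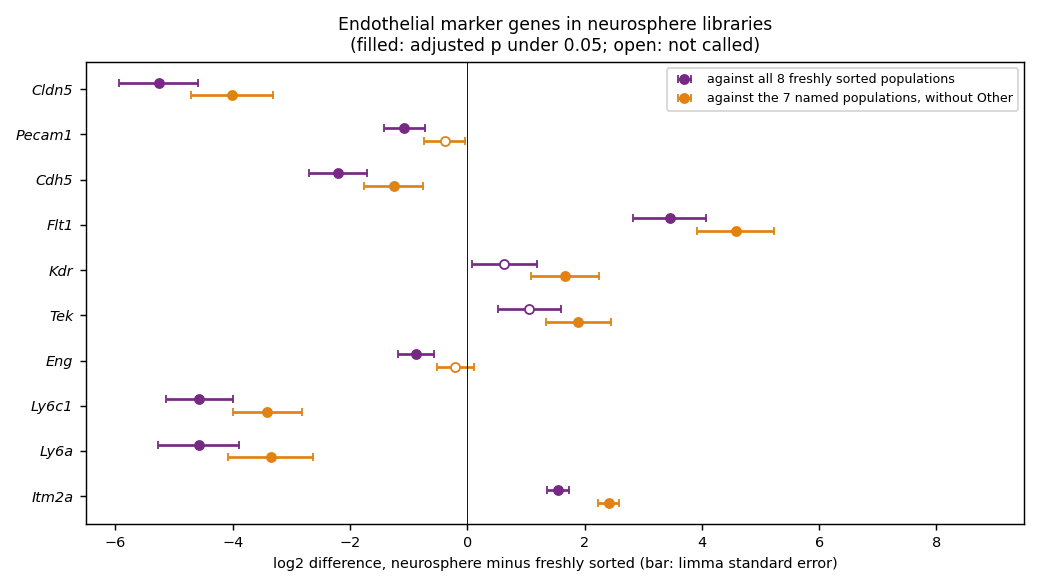
Each row is 1 endothelial marker gene, with its log2 difference between neurosphere and freshly sorted libraries on the horizontal axis, against all 8 sorted populations and against the 7 named ones; bars are limma standard errors, and filled points have an adjusted p under 0.05. Flt1 and Itm2a lie right of 0 and Cldn5, Ly6c1, Ly6a and Cdh5 left of 0 in both, while Pecam1, Eng, Kdr and Tek change their call.

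Further endothelial genes moved in both directions in neurosphere cells, and their counts depended on Other. Of 16 surface and junction genes tested, 10 were called lower and 1 higher, with a median of -1.94, and of 8 transcription factor genes 6 were lower and 2 higher, with a median of -2.22. Without Other, chosen after seeing the data, 8 surface genes were called lower and 5 higher, and 4 transcription factor genes lower and 2 higher. The summed level of the surface genes was 7.63 to 8.63 in neurosphere libraries, most of it from Cd93, against 8.87 to 10.15 in Other and 3.25 to 4.64 in the named libraries. That of the transcription factor genes was 6.37 to 7.70, against 7.28 to 8.42 in Other and 3.79 to 5.73 in the named libraries. Esam (-4.04), Podxl (-2.24), Egfl7 (-1.69), Sox18 (-3.16) and Lef1 (-4.66), a mediator of WNT signalling in barrier vessels, were among those called lower, with and without Other. The surface gene called higher with Other in the mean was Cd93, a receptor of endothelial and myeloid cells, which had 7.57 to 8.60 in the 8 neurosphere libraries, against 2.67 to 4.18 in Other and -5.06 to 0.70 in the named libraries. Cd93 was thus above even Other in every neurosphere library, by 10.64 against the mean of the 8 sorted populations (limma adjusted p 3.92e-18). The ligand gene Angpt2 had the same order of groups, with 5.80 to 7.69 in neurosphere libraries, against 1.31 to 4.22 in Other and -4.73 to 1.46 in the named libraries (difference 6.74). Ets1 (3.29) and Sox7 (3.45) were the transcription factor genes called higher. Vegfa had -0.57 to 0.34 in neurosphere libraries, against 2.50 to 3.94 in Other and 3.11 to 8.31 in the named libraries (difference -5.76, limma adjusted p 2.33e-26). Of the 18 pathway genes 7 were called higher and 5 lower, or 9 higher and 5 lower without Other.

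Markers of other cells moved in the same comparison, and their part in the values of the members was not tested. Of 16 microglial genes 16 were called lower, with a summed level of 6.28 to 6.87 in neurosphere libraries, against 7.65 to 10.43 in freshly sorted libraries. Of 5 red cell genes tested 4 were called lower. Of 9 mural genes 5 were called lower (4 without Other) and 2 higher, with a summed level of 3.76 to 4.98 in neurosphere libraries, against 1.77 to 10.96 in freshly sorted libraries. Vtn, a matrix protein of pericytes, was at the floor in 8 of 8 neurosphere libraries, and Rgs5 in 0.

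Within the neurosphere cells, DFFDA_H was compared with DFFDA_L, which the submitters describe as growing at different rates. Of the members, 3 passed the filter on low values there (Flt1, Tek and Itm2a) and 1, Itm2a, was called higher in DFFDA_H, where 21.6% of 15956 tested genes were called higher and 43.8% in either direction. Itm2a averaged 5.59 ± 0.25 in DFFDA_H and 4.74 ± 0.33 in DFFDA_L (SD, n = 4 each), and all 4 DFFDA_H libraries lay above all 4 DFFDA_L libraries. The difference was 0.84 ± 0.17 (limma adjusted p 0.00125), and it stayed called without any 1 library. Flt1 averaged 3.65 ± 0.43 in DFFDA_H and 3.24 ± 0.33 in DFFDA_L, and Tek -0.40 ± 0.40 in DFFDA_H and 0.19 ± 0.20 in DFFDA_L (SD, n = 4 each). Both overlapped between the groups and neither was called (0.41, limma adjusted p 0.168 for Flt1; -0.58, limma adjusted p 0.127 for Tek). Eng, left out by the filter, had -1.38 to -0.66 in DFFDA_H and -0.63 to 0.13 in DFFDA_L, without overlap. Among further endothelial genes, 4 of 5 surface and junction genes tested were called, with the tight junction gene Ocln higher in DFFDA_H (2.27) and Mmrn2 (-1.93), Ptprb (-0.89) and Cd93 (-0.54) lower. Both transcription factor genes tested were called, Sox7 higher (1.65) and Ets1 lower (-1.21) in DFFDA_H. Of 14 pathway genes tested 5 were called, with the ligand genes Pgf (1.24) and Angpt2 (0.97) higher and Nrp2 (-1.16), Ptprb and Itgb1 (-0.27) lower. Of 6 barrier transporters tested 5 were called higher, led by Pltp (1.52) and Mfsd2a (0.90), a lipid transporter of the barrier. In the same libraries 4 of 6 astroglial genes tested were called higher, among them Aqp4 (4.17) and Clu (3.54), and their part in these values was not tested.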

How the data were processed

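RNA was measured in 36 libraries. Poly(A)-selected RNA was amplified with a SMARTer Ultra Low kit, per the labels' protocols, and such libraries carry no strand information. FastQC, cutadapt, Trimmomatic, HISAT2, featureCounts and limma are named, with GRCm38 and mm10, in the submitters' processing notes, without versions. The authors deposited log2 values for 19909 genes; their unit is not named in the file. In each library they resemble quantile-normalized log2 CPM, so differences in a cell's total RNA are not visible. Total reads are not given, and 362 to 3932 genes stood at the floor of a library, which limits low members. After dropping 1770 blank lines, 19863 identifiers matched GENCODE release M21, the source of coordinates and exon lengths.

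Models with a mean per group were fitted with limma 3.58.1 (R 4.3.3; eBayes, trend and robust) to the 28 freshly sorted libraries (17788 genes), the 8 neurosphere libraries (15956) and all 36 (19158). A gene was tested if 3 or more libraries of 1 group had a log2 value of 0 or above. Benjamini-Hochberg adjustment ran over all genes of a comparison, and the scripts were tested on simulated data. Levels as a share of Other are 2 to the power of the difference of group means. The members and the gene lists were chosen with earlier results of these data known. Genes outside the members were named by rule: the 10 most like the summed members and the 3 most like each member, the first 3 of each list and up to 4 called with the smallest p, and all genes of the pathway and Ly6 lists. Slc7a5 and Ifit2, outside that rule, were named after their values were seen.

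Alternatives were no filter, a mean of at least 2, values below 0 set to 0, libraries centred on a trimmed mean, library weights, a replicate block, only the groups compared, and leaving out each library. Groups were compared without a block, since no comparison had every pair of libraries with the same replicate number correlated over 0.1. In pNSC against qNSC and aNSC against pNSC each library still correlated best with its own number. Shared replicates are therefore possible there.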

Additional observations from a re-analysis of the deposited data

Results flagged for a closer look

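A library was screened as standing apart from its group when its gap to the nearest other library exceeded Dixon's critical value for the group's size. Over 60 pairs of a member and a group of 4 libraries, 6 met this, where chance gives about 1 in 20, that is 3, for values without a floor. Many pairs here held libraries at the floor, so that rate is only a rough guide. Pairs with all libraries at 1 floor, such as Ly6a in DFFDA_H, could not be flagged. In DFFDA_H, Itm2a was 5.22 in replicate 4, against 5.66 to 5.74 in the other libraries, and Cdh5 was -4.71 in replicate 3, the others being at the floor of -5.06. In aNSC replicate 4, Cdh5 was -3.45 and Kdr -1.27, both above the other aNSC libraries, which lay at their floors between -4.92 and -4.71. In NPC1 replicate 1, Itm2a was 1.75, below the 2.52 to 2.62 of the other libraries. In qNSC replicate 2, Eng was -0.94, below the 0.29 to 0.49 of the other libraries.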

How the results depend on the processing

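The 10 calls in Other kept their direction and side of the threshold without any 1 library (10 to 10 called) and under each other alternative but 1. Cdh5, Flt1, Kdr, Tek and Ly6a passed the main filter only through Other, so the stability of their calls adds no support. With a mean of at least 2, Itm2a alone was tested and called (1 of 1). That filter likewise left 1 member called in neurosphere minus freshly sorted cells. In DFFDA_H minus DFFDA_L, leaving out libraries gave 1 to 1 called, and without a filter 2 were called, Itm2a and Eng (-0.87, limma adjusted p 0.0487). With library weights 1 member was called in each of NPC1 minus aNSC (Cldn5), NB1 minus NPC2 (Pecam1) and NB2 minus NB1 (Kdr). Leaving out libraries gave 0 to 1 called in pNSC minus qNSC (Ly6c1, without pNSC replicate 4), in NPC1 minus aNSC (Cldn5, without aNSC replicate 3) and in NB2 minus NB1 (Tek, without NB1 replicate 2), 8 to 9 in neurosphere minus freshly sorted cells (Tek, without qNSC replicate 3, aNSC replicate 2, NPC2 replicate 2 or NB1 replicate 2), and 0 to 0 in the other steps. The replicate block gave 1 called in pNSC minus qNSC (Ly6c1, limma adjusted p 0.0473) and 9 in neurosphere minus freshly sorted cells. In pNSC minus qNSC each library's deviations correlated best with its own number, at r of 0.0598 to 0.0924. The same held in aNSC minus pNSC, at 0.0813 to 0.175, with 3 of 4 pairs over 0.1. No comparison had every pair over 0.1, and whether replicate numbers mark shared samples is not stated. With values below 0 set to 0, 10 of 10 members were called in neurosphere minus freshly sorted cells, 2 higher and 8 lower. Of all 19158 tested genes 15908 were called there. Kdr (-0.65, limma adjusted p 5.24e-09) and Tek (-0.48, limma adjusted p 3.34e-04) reversed. Without Other as well, 3 members and 15854 of all genes were called, and Kdr was at -0.015 (limma adjusted p 0.745). The causes were not tested. Counts over all genes moved by over 1.5 times with library weights (2234, 5983, 2180, 6234 and 9015 called for pNSC, NPC1, NPC2, NB1 and NB2 against the population before, in place of 3959, 2262, 239, 1364 and 4371) and with only the groups compared (1511, 5080, 578, 2888 and 6690), and fell to 2429 without pNSC replicate 1, 1335 without NPC1 replicate 1, 80 without NPC2 replicate 1 and 764 without NB1 replicate 1. Neurosphere minus freshly sorted gave 10504 in place of 15943 genes with a mean of at least 2. Fitting only the groups compared was not run for Other, whose comparison uses all 28 libraries. The floor limits differences among the named populations for Cldn5, Cdh5, Flt1, Kdr, Tek, Ly6c1 and Ly6a, which had named libraries there.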
